A study of Mus musculus with 12 samples.

Results

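C2C12 is a mouse myoblast line, an established line whose cells leave the cycle and join into multinucleate muscle fibres in low serum. The question addressed here is for which genes the effect of an siRNA against Zfp143 differed between dividing cells and cells taken through differentiation. All 12 libraries of the study enter it, 3 in each of 4 groups, and all cells carried a wild-type genotype. The uninduced control and uninduced knockdown groups received non-targeting or Zfp143 siRNA in medium with 10% fetal bovine serum and were harvested 24 h after transfection. The induced control and induced knockdown groups received the same siRNAs, were switched at 24 h to medium with 1% horse serum and were harvested on day 5. Induction, serum and time since transfection therefore changed together and cannot be told apart. Whether replicate libraries stem from different cultures is not recorded, so the p-values measure only the spread between libraries, which may be technical.

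The interaction is the log2 siRNA effect in induced cells minus that in uninduced cells, so a positive value means a higher knockdown to control ratio in induced cells. Of 15030 genes tested, 3375 (22.5%) had a called interaction, defined by a Benjamini-Hochberg adjusted p under 0.05 in edgeR's quasi-likelihood test. It was positive for 1595 genes (10.6%) and negative for 1780 (11.8%). Within the called genes, an effect was named lost when it was called only in uninduced cells, gained when called only in induced cells, and reversed when called in both with opposite signs. Rise and fall give the direction of the siRNA effect, and for reversed genes its direction in uninduced cells. These kinds are made from the calls themselves, so the effects within a kind are descriptions.

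ZNF143, the protein encoded by Zfp143, is a zinc finger transcription factor that binds a long motif in many promoters and is known from work on chromatin loops that join promoters to distant sites. HCFC1 is one of its known cofactors. In differentiating myoblasts, the myogenic factors MYOD1 and MYOG switch on sarcomere and fusion genes while CDK inhibitors such as p21 hold the cell out of the cycle.

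The core of the ZNF143 motif was searched as ACTACANNTCC on both strands of RefSeq promoter windows of mouse build GRCm38.p6, each 250 bases before to 50 after a gene's start. The 4 windows below belong to the lost-fall genes with a match and the smallest interaction p-values, chosen after the values were seen, and are printed to show what a match looks like in genes whose fall was called before induction and not after it. They run 5′ to 3′ in the direction of the gene, with the match in capitals, and a match on the other strand reads as its reverse complement.
Prdm15, chr16:97851851-97851911, minus strand: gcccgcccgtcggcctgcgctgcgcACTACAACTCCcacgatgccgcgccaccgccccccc
Agap1, chr1:89454621-89454681, plus strand: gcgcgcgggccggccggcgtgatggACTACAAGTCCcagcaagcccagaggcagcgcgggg
Zfp111, chr7:24208177-24208237, minus strand: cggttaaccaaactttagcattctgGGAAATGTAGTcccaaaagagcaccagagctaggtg
Nfxl1, chr5:72559655-72559854, minus strand: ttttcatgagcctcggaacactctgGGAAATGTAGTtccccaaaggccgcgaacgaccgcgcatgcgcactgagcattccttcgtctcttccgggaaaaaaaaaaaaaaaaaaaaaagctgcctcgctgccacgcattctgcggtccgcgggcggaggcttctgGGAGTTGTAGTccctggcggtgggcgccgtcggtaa

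Total estimated counts ranged from 13.5 M to 19.1 M per library. A pair of libraries stood apart. Uninduced control library 3 had 6.02% of its counts on mitochondrially encoded genes, against 1.95% to 3.95% in the other libraries, and the lowest scaling factor (0.799). Induced knockdown library 1 had the lowest total, the lowest mitochondrial share and the shortest median effective transcript length (2260 bases against 2304 to 2350). Leading counts are also given without this pair. The library kit did not keep the strand, so reads from a gene and an overlapping antisense partner cannot be told apart.

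Zfp143 itself was a lost fall. It measured 23.2, 27.8 and 39.8 CPM (counts relative to the library's total, scaled with TMM factors) in uninduced control libraries 1 to 3 and 12.2, 11.9 and 10.1 in the knockdown libraries. In induced cells it measured 19.7, 19.3 and 19.2 CPM in control libraries and 14.7, 16.8 and 19.7 in knockdown libraries. The groups were apart in uninduced cells and overlapped in induced cells. The log2 siRNA effect was -1.41 (SE 0.18, adjusted p = 6.12e-05) in uninduced cells and -0.18 (SE 0.18, adjusted p = 0.646) in induced cells. Their difference was 1.22 (SE 0.26, adjusted p = 0.00358), and 1.08 (adjusted p = 0.000124) without the pair of libraries that stood apart. On day 5 a lower mRNA level of the targeted gene was thus not detected.

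Effects that were lost made up most of the called genes: 2293, of which 1169 (7.78% of the tested genes) rose and 1124 (7.48%) fell in uninduced cells. Gained effects comprised 224 rises (1.49%) and 225 falls (1.5%), together 2.99% of the tested genes. Among 338 reversed genes, 235 (1.56%) rose in uninduced and fell in induced cells, and 103 (0.685%) did the opposite. Uninduced control libraries had at most 3 counts per library on average for 140 of the lost rises and 46 of the reversed rises. A further 32 genes (0.213%) kept their direction with a smaller effect after induction, 18 (0.120%) with a larger one, and 245 (1.63%) passed in neither state alone. Without the pair of libraries that stood apart, positive interactions numbered 2769 and negative ones 2986. The lost genes then numbered 1849 rises and 1979 falls, gained genes 289 rises and 391 falls, and reversed genes 474 and 231. Of the reversed genes named with all libraries, 325 (96.2%) were again reversed, which is 46.1% of the reversed genes then found.

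**Figure D1:**
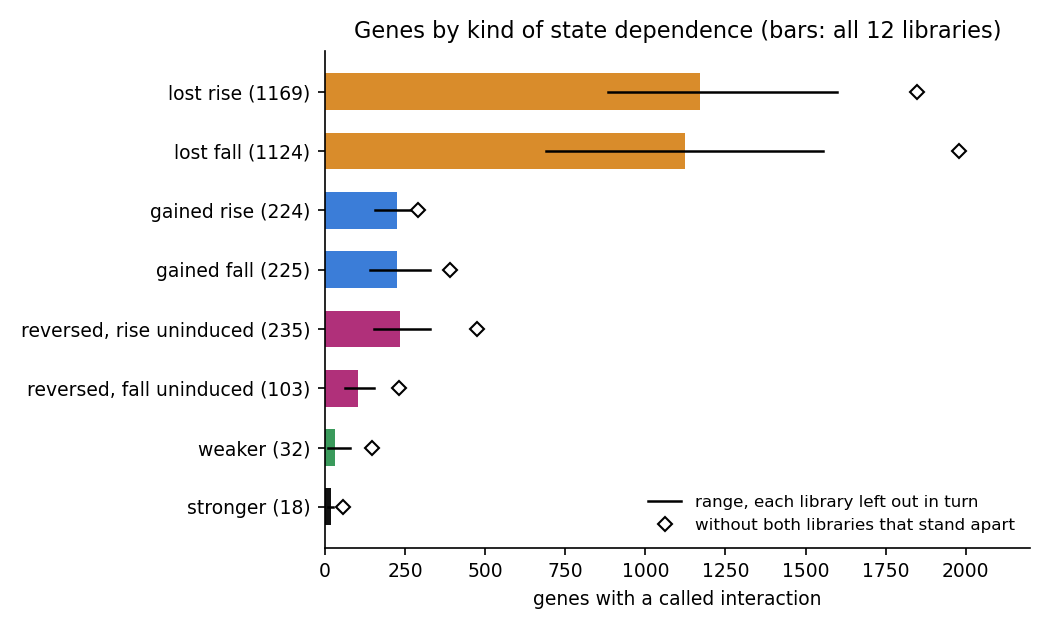
Number of genes of each kind of state dependence. Bars give the counts with all 12 libraries (also in brackets), black lines the range when each library is left out in turn, and diamonds the counts without both libraries that stand apart. Lost rises (1169) and lost falls (1124) are the longest bars, and every diamond lies to the right of the end of its bar.

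The siRNA effects of the 2 states, which share no library, were nearly unrelated across genes: Pearson's r was -0.0571 and Spearman's rank correlation -0.0226 over 15030 genes, which are not independent replicates. An equal sign was seen in 49.7% of genes. In induced cells 9.49% of the tested genes were called, against 32.5% in uninduced cells. Of 574 genes called in both states, 338 had opposite signs and 236 the same sign, and 186 had no called interaction. Genes that rose in uninduced cells and were called again in induced cells mostly changed sign (235 of 356). Of those that fell in uninduced cells, 115 of 218 kept and 103 changed sign. Among the 2293 lost genes, the induced effect pointed the opposite way in 1684 without passing. The called interaction that defines lost genes favours opposite signs by construction. Among all 4312 genes called in uninduced cells only, 2111 had opposite signs and 2186 the same sign.

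**Figure D2:**
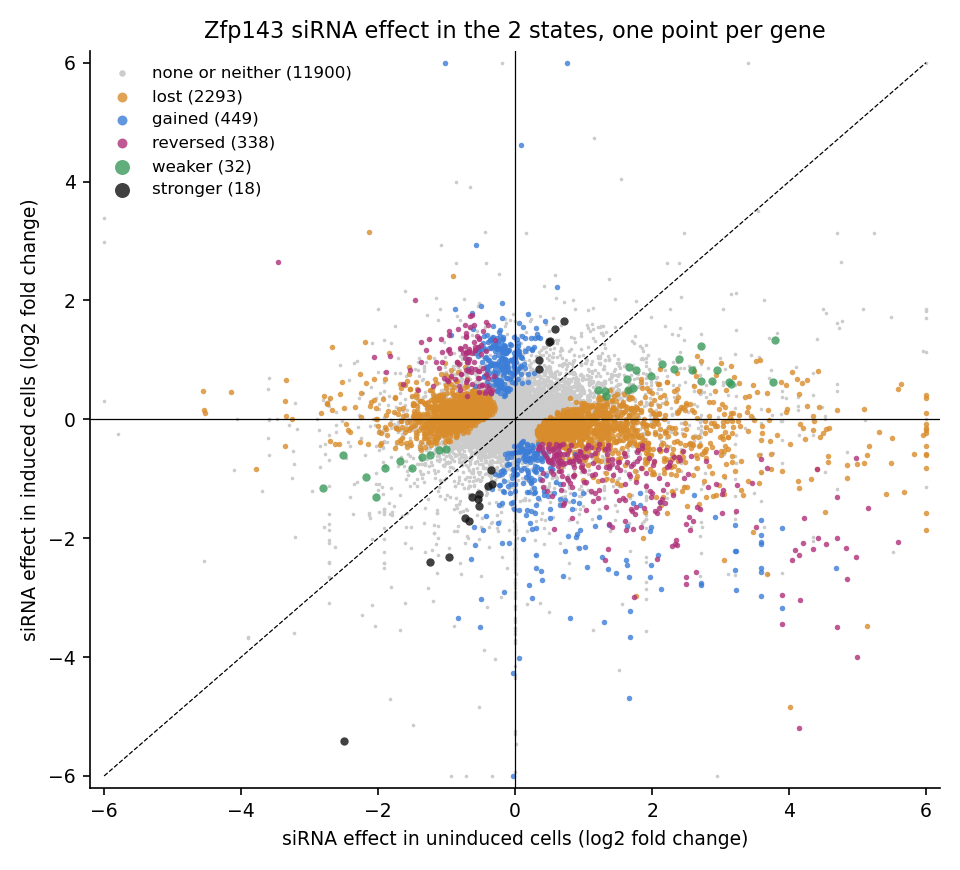
Log2 siRNA effect in induced cells (vertical) against uninduced cells (horizontal), one point per tested gene, coloured by kind. Values beyond 6 are drawn at 6, and the dashed line marks equal effects. Lost genes lie along the horizontal axis, gained genes along the vertical axis, and 235 of the 338 reversed genes lie at the lower right.

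The genes that fell in uninduced cells only included Hcfc1, a cofactor of ZNF143. In a list of 22 measured genes for ZNF143, its paralog and partners, CTCF and cohesin, 12 fell and 0 rose in uninduced cells (17.1% of all tested genes fell). The list includes Zfp143, the siRNA's target, which is counted among its falls, positive interactions and lost falls. In induced cells 2 rose and 0 fell (3.73% of all tested genes rose). The interaction was positive for 12 of them and negative for 0, and 9 were lost falls. The list's median log2 effect was -0.52 in uninduced and 0.08 in induced cells, beside -0.04 and -0.03 over all tested genes. Hcfc1, the cofactor named above, measured 184, 170 and 133 CPM in uninduced control libraries and 98.7, 115 and 97.8 in knockdown libraries. After induction its control libraries held 104, 122 and 120 CPM and its knockdown libraries 187, 134 and 141. Knockdown was thus below control without overlap before induction and above it without overlap after, although only the first difference passed (log2 effects -0.64, SE 0.15, and 0.42, SE 0.15). Such separation was common: the groups did not overlap for 43.8% of all tested genes in uninduced and 29.0% in induced cells. Nrf1, a transcription factor of genes for mitochondrial function, went from 40.0, 41.9 and 36.8 CPM in uninduced control to 21.6, 25.7 and 21.7 in knockdown libraries. After induction it measured 27.95, 25.4 and 22.5 CPM in control and 30.4, 29.5 and 24.2 in knockdown libraries, which overlap. Its interaction was 0.93 (SE 0.19, adjusted p = 0.00312).

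Among 15 myogenic transcription factors and cofactors, 0 rose and 5 fell in uninduced cells (17.1% of all tested genes fell). In induced cells 0 rose and 3 fell (5.77% of all tested genes fell). The interaction was positive for 4 and negative for 0 (10.6% of all tested genes were positive). These 4 were lost falls (7.48% of all tested genes), and no other kind was seen. Myf5, a determination factor of myoblasts, held 44.3, 62 and 64.1 CPM in uninduced control libraries and 14.8, 17.2 and 18.8 in knockdown libraries. In induced cells the control libraries held 24.9, 22.6 and 24.1 CPM and the knockdown libraries 17.9, 17.5 and 15.6. Both pairs of groups were apart, but the induced difference missed the threshold (log2 effect -0.49, SE 0.15, adjusted p = 0.0601). Induced groups were apart for 29.0% of all tested genes. Tcf4, an E-protein that pairs with myogenic factors, had effects of -1.10 and -0.18, of which the uninduced one was called. Myog, the factor that drives terminal differentiation, had no called interaction. It was 2.93, 3.24 and 3.55 CPM in uninduced control libraries against 1.94, 1.65 and 1.75 in knockdown libraries, and 352, 378 and 322 against 242, 171 and 168 after induction. Its effects of -0.86 (SE 0.21) and -0.86 (SE 0.14) were both called, and the interaction was -0.0016 (SE 0.25, 95% interval -0.54 to 0.54). Without the pair of libraries that stood apart, Myog's interaction was -0.25 (adjusted p = 0.347). Myod1 was called in neither state, and its interaction was -0.10 (SE 0.32).

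Other lost falls included a secreted binding protein and a Hedgehog inhibitor. Igfbp5, a secreted IGF-binding protein abundant in myoblasts, held 1465, 1564 and 1108 CPM in uninduced control libraries and 396, 454 and 485 in knockdown libraries. After induction the control libraries held 1432, 1814 and 1783 CPM and the knockdown libraries 1909, 1598 and 1705. The groups no longer separated, and the interaction was 1.68 (SE 0.23, adjusted p = 0.000114). Hhip, an inhibitor of Hedgehog signalling, fell from 7.72, 12.4 and 11.4 CPM to 1.03, 1.06 and 0.961 in uninduced cells. All induced libraries held between 0.367 and 0.941 CPM of Hhip, so the range left for a further fall there was small. Among the falls of largest interaction were Zfp961, a zinc finger gene (interaction 2.69, SE 0.34), Tnrc18 (2.31, SE 0.36), Arhgap33 (2.27, SE 0.36), and Lama1, the laminin alpha-1 chain (2.27, SE 0.30). Tnrc18 read 74.0, 74.9 and 39.0 CPM in uninduced control libraries, against 20.3, 23.7 and 20.2 in knockdown libraries, and library 3 was the low control. Snai2, a repressor that holds back myogenic differentiation, fell by 1.44 on the log2 scale in uninduced cells, and its induced effect was -0.21 (SE 0.13).

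Promoter windows with the core motif are given as shares of the lost, gained and reversed genes, without a test. Windows were found for 10642 of the 15030 tested genes, matched by Entrez gene ID or, failing that, symbol. The motif stood in 59 of 851 lost falls (6.93%), in 7 of 78 reversed falls (8.97%) and in 19 of 825 lost rises (2.30%). It stood in 3 of 160 gained falls (1.88%), 8 of 178 gained rises (4.49%) and 5 of 160 reversed rises (3.12%). It was in 4.87% of all tested genes with a window and in 5.00% of those with no called interaction. The share was 5.04% for tested protein-coding genes and 5.39% for tested genes with at least 1 CPM in both states. A gene counted when any of its windows held the motif. The share of 1.98% among all 32851 single windows is therefore in another unit and is not comparable. With the shorter core TACANNTCC, which lies within the longer one, the shares were 8.93% for lost falls, 4.12% for lost rises and 7.15% for all tested genes. Genes that fell in uninduced cells with no called interaction had a share of 5.06%. The 4 genes printed above fell by 1.49 (Prdm15, a zinc finger gene), 1.09 (Agap1, an Arf GTPase-activating protein), 1.23 (Zfp111) and 0.93 (Nfxl1) on the log2 scale in uninduced cells. Their induced effects lay between -0.10 and 0.33, with SE of 0.12 to 0.18. Prdm15, for example, measured 54.0, 52.1 and 44.3 CPM in uninduced control and 16.6, 19.96 and 17.3 in knockdown libraries. Its induced libraries all lay between 11.2 and 14.3 CPM. The windows of Zfp143, Hcfc1, Nrf1 and Ctcf held neither form of the motif.

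Glycolysis and the hypoxia response supplied 20 of the lost rises, more than any other of the lists. Of 35 measured genes, 29 rose and 0 fell in uninduced cells (15.4% of all tested genes rose), while 0 rose and 6 fell in induced cells (5.77% of all tested genes fell). The interaction was negative for 26 and positive for 0. They divided into 20 lost rises and 6 reversed rises, and the median effect was 0.95 in uninduced and -0.19 in induced cells. The 6 reversed rises became 3 under library-size scaling and without induced control library 1 or 2 or induced knockdown library 2, and 11 without the pair of libraries that stood apart. Adm, the secreted vasodilator adrenomedullin and a known HIF target, measured 3.70, 2.25 and 2.96 CPM in uninduced control libraries and 36.0, 34.7 and 38.3 in knockdown libraries. In induced cells the control libraries held 3.02, 2.21 and 1.78 CPM and the knockdown libraries 2.26, 1.49 and 2.30. A rise of more than 3 log2 units was thus followed by overlapping groups, and the interaction was -3.83 (SE 0.33, adjusted p = 2.20e-06). Slc2a1, the glucose transporter GLUT1, rose from 317, 247 and 234 CPM to 613, 616 and 657 before induction. After it, the control libraries were at 103, 102 and 98.4 CPM and the knockdown libraries at 107, 80.3 and 77.2. Egln1, a prolyl hydroxylase that marks HIF for degradation, had effects of 1.75 (SE 0.12) and -0.19 (SE 0.12).

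Egln3, another HIF prolyl hydroxylase, did not merely lose its rise but turned. Its uninduced control libraries held 74.8, 59.3 and 72.1 CPM and its knockdown libraries 229, 209 and 232. On day 5 it was 114, 121 and 115 CPM in control and 40.1, 39.9 and 40.0 in knockdown libraries. The groups were apart in both states, in opposite order, and the effects were 1.70 (SE 0.11) and -1.54 (SE 0.11). The interaction of -3.24 (SE 0.16, adjusted p = 3.56e-08) lay between -3.31 and -3.14 under all alternatives tried.

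The lists of stress genes moved differently in uninduced cells. The integrated stress list mostly fell where called, the unfolded protein and heat shock list was split, and the antioxidant list rose. Of 33 genes of the integrated stress response and amino acid supply, 1 rose and 14 fell in uninduced cells (15.4% and 17.1% of all tested genes). They held 1 lost rise and 4 lost falls (7.78% and 7.48% of all tested genes). Of 32 genes of the unfolded protein and heat shock responses, 9 rose and 9 fell (15.4% and 17.1% of all tested genes). They held 3 lost rises and 6 lost falls. The lost rises of the integrated stress list thus lay below their share over all tested genes, and those of the heat shock list near it. Hmox1, the inducible heme oxygenase, measured 869, 690 and 962 CPM in uninduced control libraries and 2970, 2696 and 2762 in knockdown libraries. All induced libraries lay between 52.8 and 81.1 CPM, with an effect of -0.05 (SE 0.17). Of 25 antioxidant genes, 14 rose and 0 fell in uninduced cells (15.4% of all tested genes rose). In induced cells 8 rose and 0 fell (3.73% of all tested genes rose). The 8 became 2 without induced control library 1 or 2, and 3 without induced control library 3 or induced knockdown library 2. The interaction was negative for 7 and positive for 2 of the 25 genes (11.8% and 10.6% of all tested genes). Gadd45b, a growth arrest and DNA damage gene, went from 7.72, 8.29 and 7.62 CPM to 64.0, 57.8 and 66.9 in uninduced cells. Its induced control libraries held 35.6, 33.4 and 33.8 CPM and its knockdown libraries 31.0, 24.9 and 27.7, lower without overlap but not called. Induced groups did not overlap for 29.0% of all tested genes. Dnajb1, a cochaperone of the heat shock response, had effects of 1.71 (SE 0.11) and -0.04 (SE 0.12). Sema7a, a membrane-anchored semaphorin, rose from 6.19, 3.57 and 3.35 to 89.6, 64.5 and 93.6 CPM in uninduced cells, and its interaction was -4.55 (SE 0.31).

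Interferon-responsive genes started from very different levels in the 2 states. Of 49 measured, 20 rose and 0 fell in uninduced cells (15.4% of all tested genes rose). In induced cells 0 rose and 16 fell (5.77% of all tested genes fell). The interaction was negative for 26 and positive for 0, and they comprised 15 lost rises, 5 gained falls, 5 reversed rises and 1 gene called in neither state alone. Without the pair of libraries that stood apart, 26 fell in induced cells and 14 were reversed. The 16 induced falls became 10 without induced control library 1 or 2 and 9 without induced knockdown library 3, with 0 or 1 reversed genes. In uninduced control libraries, 22 of the 49 genes had at most 3 counts per library on average, among them 8 of the 20 that rose. Ifit1, an antiviral effector, was 1.14, 1.26 and 0.985 CPM in uninduced control and 9.07, 10.5 and 8.19 in knockdown libraries. In induced cells it was 687, 666 and 656 CPM in control and 539, 617 and 493 in knockdown libraries. These were lower without overlap, as induced groups were apart for 29.0% of all tested genes, and the difference did not pass (log2 effect -0.28, SE 0.12). Bst2, a tether that holds virus particles at the cell surface, was reversed, with effects of 1.42 (SE 0.22) and -0.67 (SE 0.16). Its levels were 1.65 to 7.36 CPM in all uninduced libraries and 466 to 940 CPM in all induced ones.

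Immediate early genes, which respond within minutes to growth signals and stress, mostly rose before induction, and fewer of them fell after it. Of 25 measured, 18 rose and 1 fell in uninduced cells (15.4% of all tested genes rose). In induced cells 1 rose and 11 fell (5.77% of all tested genes fell). The 11 became 6 under library-size scaling, 5 without induced control library 1, 18 with a transcript length offset, and 17 without the pair of libraries that stood apart. The interaction was negative for 18 and positive for 1, with 9 reversed rises and 8 lost rises. Maff, a small MAF transcription factor, measured 37.2, 30.5 and 35.3 CPM in uninduced control libraries and 278, 229 and 277 in knockdown libraries. After induction it was 28.7, 25.6 and 24.6 CPM in control and 20.7, 15.4 and 17.6 in knockdown libraries. Its effects were thus 2.93 (SE 0.13) and -0.56 (SE 0.14), a large rise followed by a small called fall. Dusp5 and Dusp1, phosphatases that switch off MAP kinases, went the same way, with effects of 2.21 and -0.51 and of 1.81 and -0.65. Fosb, a component of AP-1, was a gained fall: induced control libraries held 190, 92.2 and 124 CPM and knockdown libraries 6.31, 29.8 and 27.6. Induced knockdown library 1 was the lowest, and without the pair that stood apart the interaction was -3.62 in place of -4.33. These differences also take in Fosb's uninduced effect, which was not called with all libraries, so they are not the size of the induced fall alone.

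Cytokine genes mostly lost their rise. Of 23 chemokine and cytokine genes, 14 rose and 2 fell in uninduced cells (15.4% and 17.1% of all tested genes). In induced cells 0 rose and 6 fell (5.77% of all tested genes fell). There were 13 negative and 2 positive interactions (11.8% and 10.6% of all tested genes). Uninduced control libraries had at most 3 counts per library on average for 5 of the 23 genes, among them 3 that rose. There were 8 lost rises, 5 reversed rises, 1 lost fall and 1 weaker fall. The 6 induced falls became 4 without any one of induced control libraries 2 and 3 and induced knockdown library 2, and under library-size scaling. Tnfaip3, an inhibitor of NF-kappaB signalling, had effects of 2.45 (SE 0.14) and -0.53 (SE 0.14), and Lif, a cytokine of the IL-6 family, of 1.79 (SE 0.14) and -0.52 (SE 0.14). Ccl5 was at 0.163, 0.0549 and 0 CPM in uninduced control libraries and 1.31, 1.42 and 1.41 in knockdown libraries. Once induced, it fell from 49.0, 34.9 and 36.1 to 9.90, 7.82 and 5.71 CPM. The uninduced rise rests on 4 summed counts in the controls against 72, so its size is uncertain.

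Targets of p53 included the cell cycle inhibitor p21. Among 29 genes, 15 rose and 3 fell in uninduced cells (15.4% and 17.1% of all tested genes). In induced cells 3 rose and 8 fell (3.73% and 5.77% of all tested genes). The interaction was negative for 13 and positive for 3 (11.8% and 10.6% of all tested genes). The 8 induced falls became 5 under library-size scaling and without any one of induced control libraries 1 and 2 and induced knockdown libraries 2 and 3. Cdkn1a, which encodes p21, measured 536, 448 and 415 CPM in uninduced control libraries and 1066, 1067 and 1101 in knockdown libraries. After induction its control libraries held 358, 420 and 356 CPM and its knockdown libraries 284, 258 and 262. The groups did not overlap in either state, and the effects were 1.21 (SE 0.13, adjusted p = 1.06e-05) and -0.49 (SE 0.13, adjusted p = 0.0238). Btg2, an antiproliferative p53 target, had effects of 1.37 and -0.81, and Pmaip1, the pro-apoptotic protein NOXA, of 1.48 and -1.20, all called. The 2 stronger rises of this list, Gtse1 and Psrc1, encode proteins of the mitotic spindle and of G2, and rose in both states.

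All 46 genes of a mitosis list were measured, and nearly all depended on the state. The interaction was positive for 44 (95.7%) and negative for 0. In uninduced cells 1 rose and 18 fell. In induced cells 45 rose and 0 fell (3.73% of all tested genes rose). The 44 comprised 26 gained rises and 18 reversed falls, and the median effect was -0.36 in uninduced and 1.28 in induced cells. This split depended on single libraries. It was 32 gained and 12 reversed without uninduced control library 2 or without uninduced knockdown library 1. Without uninduced control library 1 it was 21 gained and 23 reversed. Leaving out each library in turn or both that stood apart, scaling by library size only, a replicate block and a transcript length offset each gave 44 or 45 positive interactions. The summed level of the list ran from 1870 to 2684 CPM in uninduced control and from 1598 to 1796 CPM in uninduced knockdown libraries. It ran from 1292 to 1377 CPM in induced control and from 2889 to 3371 CPM in induced knockdown libraries, so the induced knockdown libraries held the most mitotic transcripts of the 4 groups.

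Kif20a, a kinesin needed for cytokinesis, measured 26.7, 27.7 and 32.2 CPM in uninduced control libraries and 19.5, 17.7 and 17.6 in knockdown libraries. After induction it was 30.9, 37.6 and 31.5 CPM in control and 95.1, 102 and 95.4 in knockdown libraries. The groups were apart in both states, in opposite order, with an interaction of 2.21 (SE 0.17, adjusted p = 9.58e-07). Bub1b, a spindle checkpoint kinase, had effects of -0.72 (SE 0.13) and 1.41 (SE 0.13), and Cdc20, the activator of the anaphase-promoting complex, of -0.43 (SE 0.13) and 1.63 (SE 0.13). Ccnb1, cyclin B1, stood at 71.6, 90.2 and 150 CPM in uninduced control libraries and 50.9, 61.2 and 48.1 in knockdown libraries, and library 3 was the high control. In induced cells it was 28.6, 29.0 and 24.1 CPM in control and 59.5, 85.7 and 72.3 in knockdown libraries. The interaction was 2.38 (SE 0.31), and 2.14 (adjusted p = 9.35e-08) without the pair of libraries that stood apart. Mki67, the proliferation antigen Ki-67, was a gained rise, with 54.0, 63.3 and 56.1 against 48.2, 56.5 and 36.4 CPM in uninduced cells. After induction it measured 81.6, 110 and 110 CPM in control and 221, 257 and 259 in knockdown libraries, an effect of 1.29 (SE 0.16).

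Replication genes rose in induced cells as well, but without the preceding fall. Of 47 measured, 9 rose and 3 fell in uninduced cells (15.4% and 17.1% of all tested genes). In induced cells 31 rose and 0 fell (3.73% of all tested genes rose). A positive interaction was called for 22 and a negative one for 0 (10.6% of all tested genes were positive). There were 16 gained rises. Without the pair of libraries that stood apart, 20 rose in uninduced cells and 40 in induced cells. The 9 uninduced rises became 17 without uninduced control library 3, 5 without uninduced control library 1 and 4 without uninduced knockdown library 1. Mcm4, a subunit of the replicative helicase, measured 117, 131 and 107 CPM in uninduced control and 104, 107 and 105 in knockdown libraries, with no call. In induced cells the control libraries held 39.4, 40.0 and 40.6 CPM and the knockdown libraries 72.1, 82.3 and 72.8, an effect of 0.92 (SE 0.11). Pole, the catalytic subunit of DNA polymerase epsilon, was a reversed fall, with effects of -0.72 (SE 0.15) and 1.11 (SE 0.16). The gained rises of largest interaction were Pif1, a DNA helicase (2.43, SE 0.42), Eme1, a subunit of a junction-cutting endonuclease (2.41, SE 0.29), Cdc25c, a phosphatase that activates CDK1 (1.89, SE 0.33), the kinetochore genes Cenpm (1.85, SE 0.31) and Ndc80 (1.76, SE 0.31), and Fanci of the Fanconi anaemia pathway (1.82, SE 0.25).

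**Figure D3:**
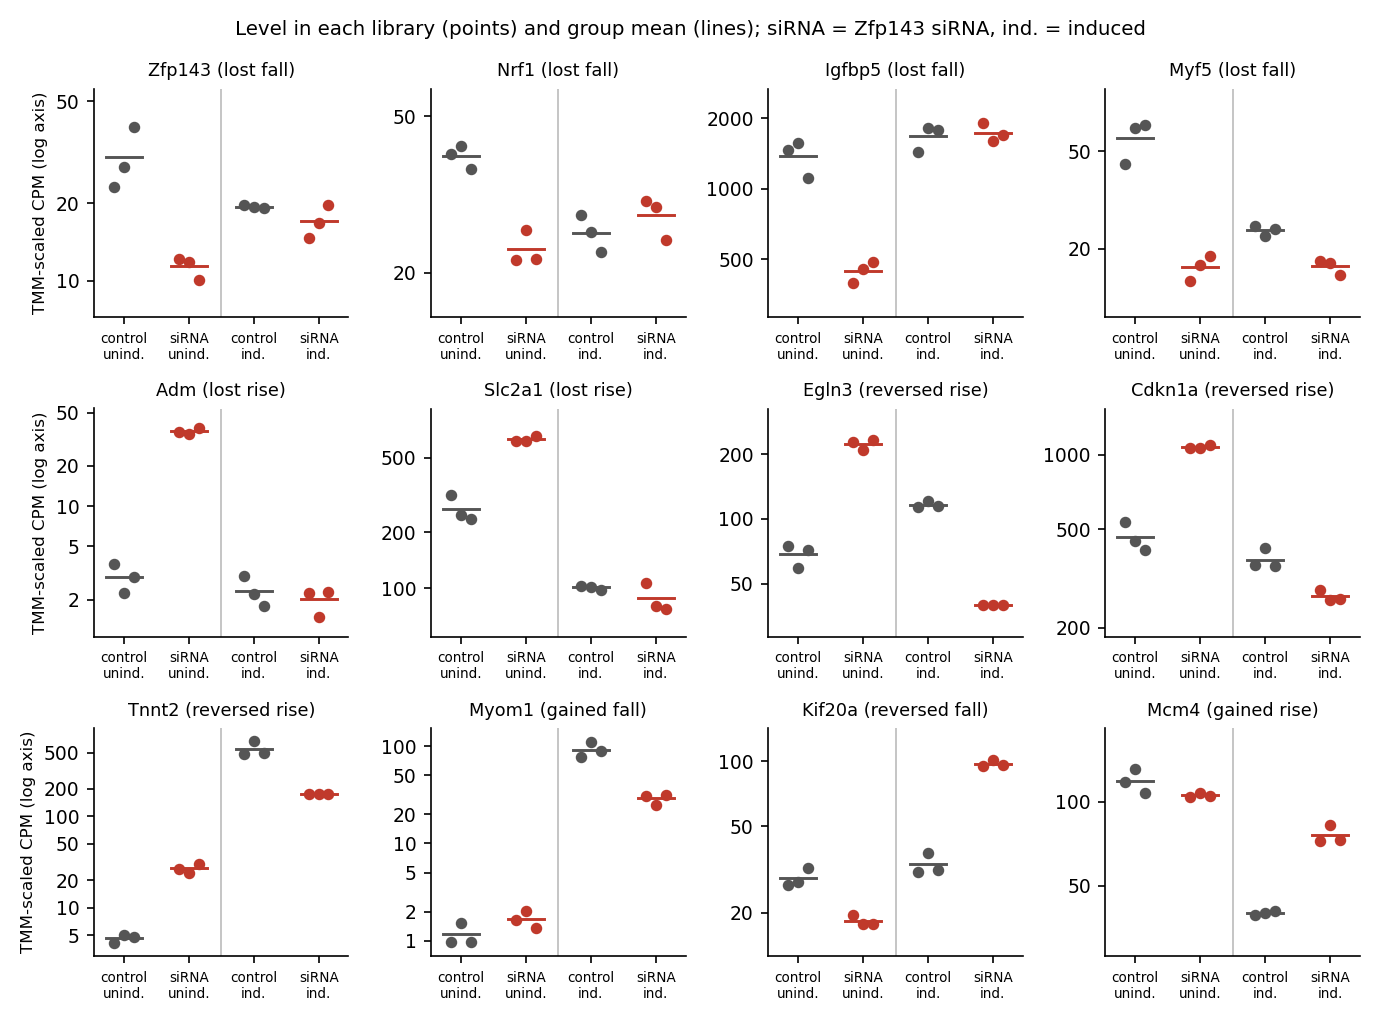
TMM-scaled CPM of 12 genes in each library (points) with group means (lines), on log axes. Control libraries are grey and Zfp143 siRNA libraries red, uninduced on the left of the vertical line and induced on the right. In Egln3, Cdkn1a, Tnnt2 and Kif20a the order of control and knockdown libraries is opposite in the 2 states, whereas in Adm, Igfbp5 and Zfp143 the induced groups overlap.

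Genes of sterol and fatty acid synthesis formed a further group with larger effects after induction. Of 32 measured, 12 rose and 5 fell in uninduced cells (15.4% and 17.1% of all tested genes). In induced cells 25 rose and 0 fell (3.73% of all tested genes rose). The interaction was positive for 14 and negative for 4 (10.6% and 11.8% of all tested genes). They included 7 gained rises, 3 reversed falls and 2 stronger rises. Elovl6, a fatty acid elongase, fell from 37.0, 38.6 and 35.0 to 14.95, 18.4 and 14.6 CPM before induction. It rose from 33.1, 34.8 and 39.8 to 42.8, 58.4 and 58.4 CPM after it, so the groups were apart in both states. Cyp51, a sterol demethylase, had effects of -0.47 (SE 0.16) and 0.87 (SE 0.16). Sqle, squalene epoxidase, and Fdps, farnesyl diphosphate synthase, rose in both states and more after induction, with effects of 0.35 and 0.84 for Sqle and of 0.35 and 1.00 for Fdps.

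Reversed falls outside these lists were led by Sp8, a zinc finger transcription factor (interaction 3.12, SE 0.35), Ppp2r2b, a regulatory subunit of protein phosphatase 2A (2.88, SE 0.29), and Peg10, a paternally expressed imprinted gene. Peg10 measured 68.0, 71.7 and 53.1 CPM in uninduced control and 15.6, 18.2 and 18.3 in knockdown libraries. On day 5 it was 43.6, 51.3 and 52.3 CPM in control and 66.4, 94.8 and 94.4 in knockdown libraries. The groups were apart in both states, with effects of -1.89 (SE 0.16) and 0.80 (SE 0.16).

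Structural muscle genes moved opposite to the mitotic ones. Of 57 sarcomere genes measured, 51 fell and 0 rose in induced cells (5.77% of all tested genes fell), with a median log2 effect of -1.66. In uninduced cells 13 rose (8 without uninduced knockdown library 3) and 4 fell, and the median was 0.00. That median rests on low counts: 23 of the 57 genes had at most 3 counts per library on average in both uninduced groups, and 7 had none. Of the 13 rises, 5 started from such a level in uninduced control libraries. The interaction was negative for 27 and positive for 1 (13 gained falls, 13 reversed rises, 1 stronger fall and 1 lost fall). Tnnt2, the cardiac-type troponin T of immature muscle, was 4.13, 4.99 and 4.73 CPM in uninduced control libraries and 26.9, 23.7 and 30.2 in knockdown libraries. After induction its control libraries held 480, 666 and 499 CPM and its knockdown libraries 178, 176 and 175. It thus rose by 2.54 (SE 0.16) before induction and fell by 1.64 (SE 0.14) after it on the log2 scale, and the interaction was -4.18 (SE 0.21, adjusted p = 3.56e-08). Cryab, a small heat shock protein of the Z-disc, went from 42.2, 31.1 and 41.3 to 190, 175 and 181 CPM in uninduced cells. Once induced, it went from 185, 210 and 171 to 122, 113 and 98.2 CPM. The uninduced knockdown and induced control libraries overlapped in level.

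Several muscle genes that fell in induced cells had very few counts before induction. Acta1, skeletal alpha-actin, had 7 summed counts in uninduced control and 30 in uninduced knockdown libraries, against 240763 and 77796 after induction. Mymk, the fusogen myomaker, had 6 and 52 summed counts before induction. It measured 185, 214 and 172 CPM in induced control and 92.1, 79.2 and 79.3 in induced knockdown libraries, an effect of -1.19 (SE 0.15). For Myh3, embryonic myosin heavy chain, the uninduced groups had 2 and 1 summed counts, both under a floor of 3 counts per library, and no effect is given there. In induced cells Myh3 fell from a mean of 1578 CPM to 537, and its interaction was not called (adjusted p = 0.872). Ckm, muscle creatine kinase, had 0 and 3 summed counts before induction and a mean of 304 CPM in induced control against 52.6 in induced knockdown libraries. Its interaction call (adjusted p = 0.033) was lost under 6 of 21 alternatives.

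Gained falls of muscle genes with measurable uninduced levels included Myom1, the M-band protein myomesin. It measured 0.978, 1.54 and 0.985 CPM in uninduced control and 1.66, 2.01 and 1.36 in uninduced knockdown libraries, which overlap. The induced control libraries held 77.8, 109 and 88.8 CPM and the knockdown libraries 30.6, 24.95 and 31.8, an effect of -1.66 (SE 0.16). Clic5, an intracellular chloride channel protein (effect -2.51, SE 0.21), Coq8a, a kinase-like protein of coenzyme Q synthesis (-1.82, SE 0.15), Fabp3, the muscle fatty acid-binding protein (-3.50, SE 0.38), and Tbc1d8 (-2.01, SE 0.25) were the other gained falls of largest interaction. Only 150 of all 225 gained falls had at least 1 CPM in a group of each state, against 217 of 224 gained rises.

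Of 32 genes for the neuromuscular junction and for excitation-contraction coupling, 11 rose and 2 fell in uninduced cells (15.4% of all tested genes rose). In induced cells 0 rose and 24 fell (5.77% of all tested genes fell). The interaction was negative for 19 and positive for 0 (10 reversed rises, 8 gained falls and 1 lost rise). In uninduced control libraries, 10 of the 32 genes had at most 3 counts per library on average, among them 3 of the 11 that rose. Subunits of the acetylcholine receptor were among them: Chrnb1 had effects of 1.35 (SE 0.13) and -0.43 (SE 0.12), and Chrnd of 0.47 (SE 0.15) and -1.20 (SE 0.15). Cacng1, the gamma subunit of the muscle calcium channel, had effects of 0.78 (SE 0.13) and -0.72 (SE 0.13). Of 24 genes of muscle metabolism, 10 rose and 4 fell before induction (15.4% and 17.1% of all tested genes). After it 0 rose and 12 fell (5.77% of all tested genes fell). The interaction was negative for 12 and positive for 4 (11.8% and 10.6% of all tested genes). Among these were 5 reversed rises, 3 lost rises, 3 gained falls, 2 lost falls, 1 weaker fall and 1 stronger fall. The 10 uninduced rises became 5 without uninduced control library 2 and 6 without uninduced knockdown library 1. Of the 24 genes, 7 were at that low level in uninduced control libraries, among them 1 of the 10 that rose. Pygm, muscle glycogen phosphorylase, measured 0.978, 0.823 and 0.526 CPM in uninduced control and 3.48, 4.25 and 4.35 in knockdown libraries. In induced cells it was 62.6, 76.1 and 61.1 CPM in control and 18.0, 14.95 and 16.01 in knockdown libraries, with an interaction of -4.37 (SE 0.29).

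**Figure D4:**
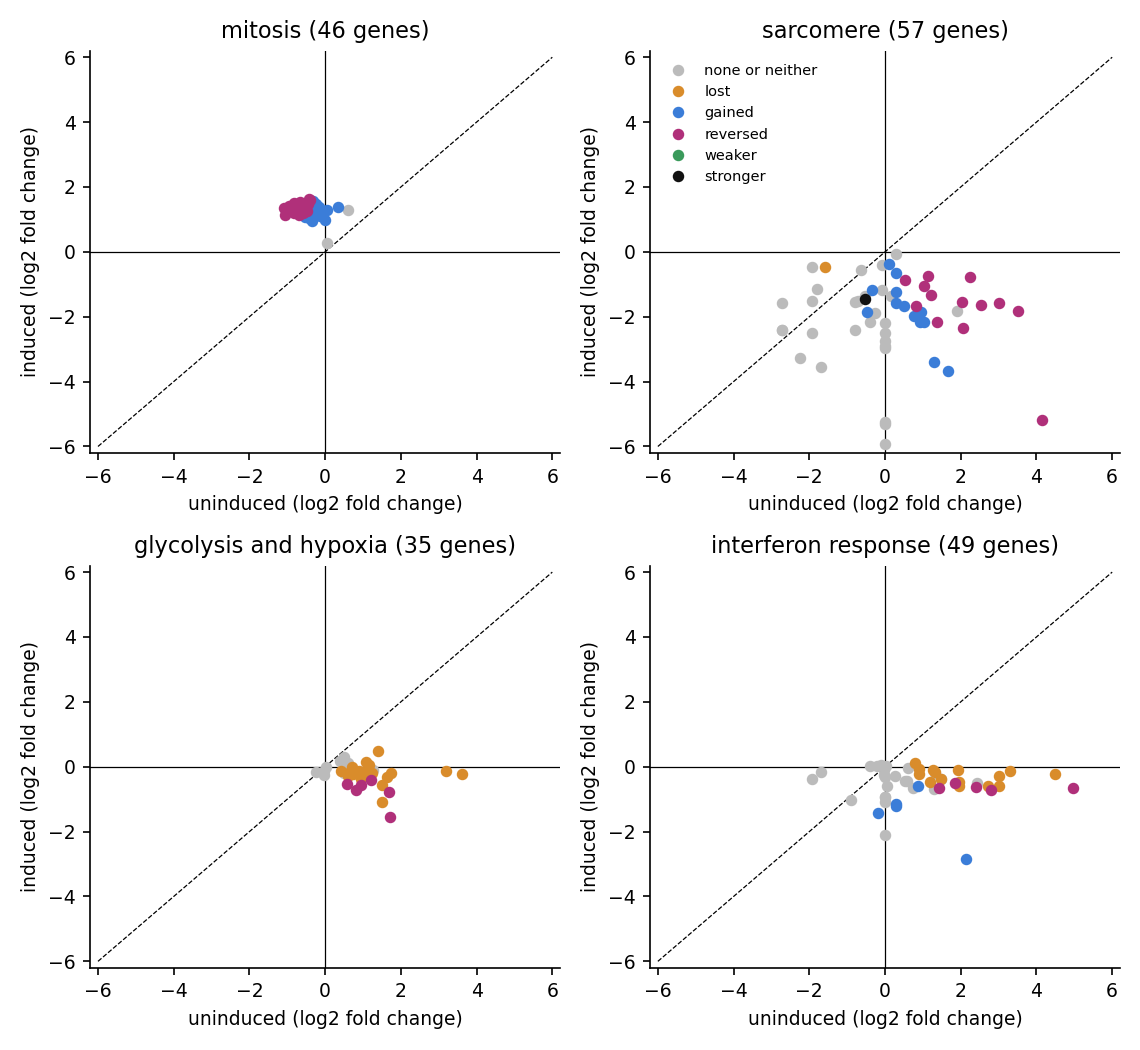
Log2 siRNA effect in induced (vertical) against uninduced cells (horizontal) for each measured gene of 4 lists, coloured by kind. The dashed line marks equal effects. Mitotic genes lie above 0 on the vertical axis, most sarcomere genes lie below 0, and glycolysis and interferon genes extend along the right of the horizontal axis. Points of the sarcomere and interferon panels at exactly 0 on the horizontal axis are genes with no counts in uninduced libraries.

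Genes of smooth muscle, matrix and YAP or TGF-beta responses with a called interaction were mostly reversed or lost rises. Of 27 YAP, TGF-beta and smooth muscle genes, 12 rose and 6 fell in uninduced cells (15.4% and 17.1% of all tested genes). In induced cells 0 rose and 8 fell (5.77% of all tested genes fell), with 9 negative and 2 positive interactions. Without the pair of libraries that stood apart, the interaction was negative for 14 and positive for 6. Ccn2, a matricellular protein and standard YAP target, was 5.22, 5.54 and 3.29 CPM in uninduced control and 21.5, 8.21 and 18.0 in knockdown libraries. After induction it fell from 365, 312 and 312 to 128, 101 and 98.7 CPM, and the interaction was -3.35 (SE 0.38). Acta2, smooth muscle alpha-actin, rose from 12.6, 11 and 9 to 35.3, 31.5 and 41.1 CPM and then fell from 2368 to 1402 CPM on average. Of 47 matrix genes, 19 had a negative and 5 a positive interaction (26 and 10 without that pair). Over all tested genes, 11.8% had a negative and 10.6% a positive interaction. With all libraries, the positive counts of the matrix and YAP lists were near or below the latter share. Hes1, a Notch-responsive repressor, was also a reversed rise, with effects of 1.04 (SE 0.21) and -1.53 (SE 0.21).

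Few genes kept the direction of their effect and changed only its size. Among the 21 weaker rises (0.140%), Hspa1b, an inducible HSP70, went from 32.5, 24.6 and 21.2 to 359, 352 and 355 CPM in uninduced cells. On day 5 it measured 43.8, 42.4 and 42.6 CPM in control and 88.4, 55.4 and 55.4 in knockdown libraries, an effect of 0.63 (SE 0.18) in which library 1 was the highest. Gclm, a subunit of the enzyme that begins glutathione synthesis, had effects of 1.73 (SE 0.13) and 0.52 (SE 0.14). The 11 weaker falls (0.0732%) included Gfra1, a GDNF receptor (-2.51, SE 0.14, and -0.61, SE 0.13), and Ppargc1a, the coactivator PGC-1alpha (-2.81, SE 0.24, and -1.16, SE 0.26). Ppargc1a measured 12.2, 16.1 and 13.4 against 1.48, 2.66 and 1.81 CPM before induction. After induction it was 3.38, 3.16 and 3.83 against 1.53, 1.14 and 1.95 CPM, so it was below control in every library of both states.

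The 18 stronger effects comprised 6 rises (0.0399%) and 12 falls (0.0798%). Atf3, a stress-responsive transcription factor, fell from 318, 347 and 305 to 189, 198 and 196 CPM in uninduced cells. It fell from 25.4, 25 and 22.2 to 8.10, 6.98 and 7.76 CPM in induced cells, so its level was lower throughout and its relative fall larger, with an interaction of -0.93 (SE 0.16, adjusted p = 0.000818). Tmod1, a cap of the thin filament, fell by 0.53 and 1.46, and Cox6a2, the muscle form of a cytochrome oxidase subunit, by 0.97 and 2.32 on the log2 scale. The call for Cox6a2 was lost under 7 of 22 alternatives. Gtse1, a G2 and S phase gene, rose by 0.71 and 1.65, also with a call lost under 7 of 22.

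**Figure D5:**
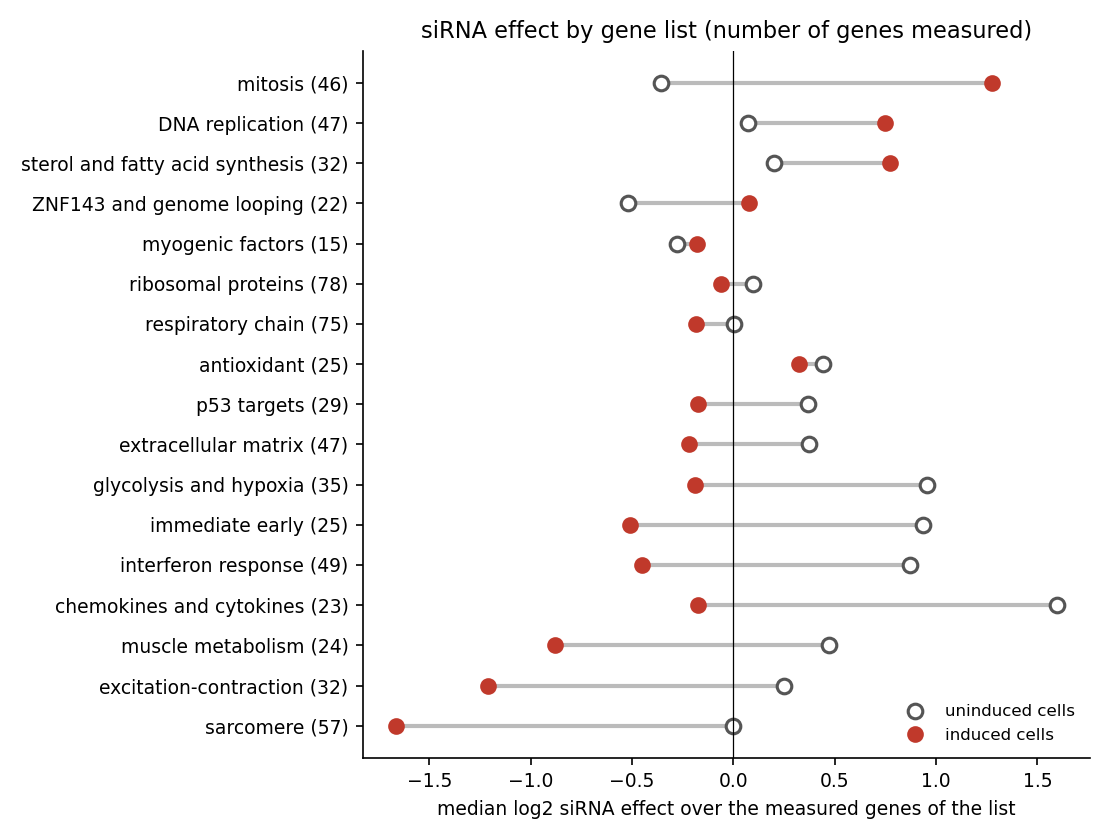
Median log2 siRNA effect over the measured genes of 17 lists in uninduced (open) and induced cells (filled), with the number of genes in brackets. Mitosis runs from -0.36 to 1.28 and chemokines and cytokines from 1.60 to -0.17, while the medians of ribosomal proteins and the antioxidant list moved little.

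Ribosomal and respiratory genes had few calls with all libraries, and 1 library decided that. Of 78 cytosolic ribosomal protein genes, 3 rose and 0 fell in uninduced cells, 0 moved in induced cells, and 0 had a called interaction with edgeR (1 under library-size scaling, 3 with a transcript length offset). Without uninduced control library 3, which had the high mitochondrial share, 59 rose in uninduced cells and 39 had a negative interaction. For 75 nuclear-encoded respiratory chain genes, 2 interactions were called with all libraries, 7 with the length offset and 23 without that library. For 78 mitochondrial ribosome genes the counts were 2, 6 and 13. The 13 mitochondrially encoded genes had 0 called interactions with all libraries. The part of that library's mitochondrial share in these counts was not tested.

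The cells carried the markers of the labelled line: Myod1 at 5.91 to 7.57 CPM and Myf5 at 44.3 to 64.1 CPM in uninduced control libraries, and Myog, Myh3 and Ckm in all induced libraries. Markers of other cell types were sought because changes of composition and of RNA per cell cannot be told apart in bulk samples. Of 12 endothelial markers 4 were measured, with 0 called interactions and a summed level of 3.05 to 8.27 CPM over all libraries, and Tie1 was at 0. Of 12 leukocyte markers 5 were measured, with a sum of 22.6 to 31.1 CPM in uninduced control, 31.0 to 39.1 in uninduced knockdown, 19.9 to 21.1 in induced control and 25.3 to 29.7 in induced knockdown libraries. Adgre1 was at 0, Cd14 was the most abundant, and Cd68 and Csf1r were lost rises from 1.52 and 0.57 CPM. Of 12 adipocyte markers 4 were measured, Lpl foremost, and Retn, Lep, Ucp1 and Cfd were at 0. Of 16 epithelial and neural markers 4 were measured, led by Stmn2, and Epcam, Krt5, Rbfox3 and Snap25 were at 0. Of 13 bone and cartilage markers 7 were measured, Ibsp was at 0, and Spp1, the most abundant, was a lost rise whose call was lost under 10 of 22 alternatives. Fibroblast and smooth muscle markers, 12 of 15 measured, summed to 537 to 557 CPM in uninduced control and 715 to 734 in uninduced knockdown libraries. In induced cells they summed to 3970 to 4406 CPM in control and 2768 to 3066 in knockdown libraries, with Acta2 the most abundant. Their part in the results for the matrix and smooth muscle genes was not tested. Of 13 markers of satellite and reserve cells, which are muscle stem cells and undifferentiated cells that remain in induced cultures, 4 had a negative interaction and 0 a positive one, and Calcr and Chrdl2 were at 0. Nes, the most abundant, had effects of 0.62 and -0.48.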

How the data were processed

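Polyadenylated RNA of C2C12 cells was sequenced in 12 libraries, 3 per group. Per the submitters' processing notes the authors used fastp 1.0.1, STAR 2.7.11b, Salmon and build GRCm39. No version of Salmon is stated there. The deposited estimated counts per gene (up to 7.26% of a library's values are not whole) were rounded to whole numbers here. The deposited effective transcript lengths served 1 alternative, and 24 columns of other per-sample values were not used. In the names of 2 induced knockdown columns a pair of letters is transposed against the labels.

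Of 78810 lines, 535 repeat a gene ID and were dropped. The filterByExpr function of edgeR (minimum count 10, total 15) left 15030 of 78275 gene IDs. A mean per group was fitted in R 4.3.3 with edgeR 4.0.16 (TMM, robust quasi-likelihood, 8 residual degrees of freedom); limma 3.58.1 and DESeq2 1.42.0 served alternatives. Totals of 13.5 M to 19.1 M counts set the precision, and low genes are given as summed counts beside a floor of 3 counts per library. P-values are Benjamini-Hochberg adjusted over all tested genes, SE come from the quasi-likelihood variance, and intervals are 95%. The script was tested on simulated counts.

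The sorting, the 35 gene lists and the alternatives (scaling, tool, filters, transcript length, replicate number, threshold, libraries left out) were chosen with earlier results of these data known. The text names Zfp143, 16 panel genes, the 6 largest interactions of each kind and direction with at least 5 CPM in the highest group, at least 1 CPM in each state and groups that do not overlap where called, up to 3 members of smallest p per list, and the most abundant marker of each other cell type. Some genes that this rule names are not reported here. Prdm15, Agap1, Zfp111, Nfxl1 and Ctcf were named in addition after the values were seen. Promoter windows are from RefSeq, build GRCm38.p6, and no coordinate was carried between builds.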

Additional observations from a re-analysis of the deposited data

Results flagged for a closer look

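The siRNA effect differed between uninduced and induced cells by the interaction test itself for 1595 genes with a positive and 1780 with a negative interaction. Every gene of these counts meets that criterion, so only the targeted gene and the fixed panel are given one by one. Positive log2 interactions were called for Zfp143 (1.22), Myf5 (1.26), Mki67 (1.58) and Ccnb1 (2.38). Negative ones were called for Slc2a1 (-1.44), Cdkn1a (-1.70), Isg15 (-2.41), Acta1 (-3.59), Tnnt2 (-4.18), Mymk (-4.22) and Ckm (-5.75). The fitted values for Acta1, Mymk and Ckm rest on 7, 6 and 0 summed counts in the uninduced control libraries and are no bound.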

How the results depend on the processing

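The named genes kept their direction and call in 3172 combinations of gene and alternative, missed the threshold in 99 and changed sign in 17. The sign changes concern Myog, Mef2c, Myh3 and Myod1, none with a called interaction. Myog gave 0.06825 with library size as the only scaling, 0.01676 with no filter on low counts, and -0.1875 to 0.09411 with each library left out in turn. Mef2c gave -0.5212 with DESeq2, -2.058 with limma-voom, and -1.254 to 0.8323 with each library left out. Leaving out each library gave -3.469 to 1.164 for Myh3 and -0.3803 to 0.1008 for Myod1. DESeq2 gave 53 weaker effects. A minimum of 1 CPM in both states left 522 falls in induced cells and 145 gained falls. With effects required to exceed 1.5-fold, 64 reversed falls and 7 stronger effects remained in the count. At an adjusted p under 0.01 there were 722 positive and 1018 negative interactions, 1461 rises and 1430 falls in uninduced and 318 and 528 in induced cells. These gave 686 lost rises, 466 lost falls, 122 gained falls, 116 reversed rises, 41 reversed falls, 5 weaker and 3 stronger effects; fewer calls follow from a stricter threshold. Without both libraries that stood apart there were 2769 positive and 2986 negative interactions, 3522 rises in uninduced cells, and 949 rises and 1576 falls in induced cells. The kinds were then 1849 lost rises, 1979 lost falls, 391 gained falls, 474 reversed rises, 231 reversed falls, 146 weaker and 56 stronger effects, and the cause was not tested. Leaving out each library in turn gave 1094 to 2232 positive and 1382 to 2518 negative interactions, 1784 to 2951 rises and 1693 to 2954 falls in uninduced cells, and 337 to 807 rises and 564 to 1207 falls in induced cells. Lost rises ran from 882 to 1599, lost falls from 689 to 1554, gained rises from 156 to 295, gained falls from 141 to 328, reversed rises from 154 to 326, reversed falls from 62 to 153, weaker effects from 10 to 79 and stronger ones from 8 to 26. The highest of these came without uninduced control 3, except for falls in uninduced cells and stronger effects (without induced knockdown 1). The lowest came without uninduced knockdown 1 or 3, induced control 2 or induced knockdown 2. Scaling by library size alone split the induced calls into 681 rises and 631 falls (560 and 867 with TMM factors) and the gained genes into 277 and 156 (224 and 225), and the median interaction of all genes was 0.09 in place of 0.02.

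After group means were removed, same-numbered libraries of different groups correlated at -0.0963 to 0.306 and different-numbered ones at -0.279 to 0.249, so the numbers were not taken as pairs. A replicate block gave 1702 positive and 1862 negative interactions.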
